A study of Mus musculus with 28 samples.

Results

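Skin from the wound site of mice, labelled day 14, was compared with skin of the earliest time point. The comparison rested on 8 of the 28 libraries of the series, the 4 labelled day 14 and the 4 labelled day 0, and on all 29068 genes of the count table. All were C57BL/6J mice, 8 weeks old and MLKL+/+ (with an intact Mlkl gene). The study's wounds were made on the back with a 6-mm punch, down to the fascia, and the labels of both days give natural wound healing as the treatment. The study's methods speak of both sexes, and all 8 libraries held transcripts of the Y-linked Ddx3y (2101 to 3369 counts) and at most 4 counts of Xist. The samples were whole wound sites by the study's methods and total RNA was used, so that scab, epithelial margin, dermis, fat and muscle entered together. The labels treat day 0 as the control. The study's methods name no day 0 and give day 1 after injury as the first day on which wound sites were collected. Its figure legends count the day of injury as day 1. If that is the day labelled day 0, its skin was taken after wounding, and day 0 is then no unwounded skin. The labels speak of 5 repeats per time point, and 4 were analysed here. Nothing states that the 4 libraries of a day came from separate animals, so p-values measure the spread between these libraries.

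A full-thickness skin wound heals through clotting, an influx of leukocytes, closure by migrating keratinocytes and the laying down and slow remodelling of a collagen-rich matrix. Hair follicles in the surrounding skin pass on their own schedule through rest (telogen) and growth (anagen). In anagen the matrix cells at the base of the follicle divide and differentiate into the inner root sheath and the hair shaft, which is built of hair keratins and keratin-associated proteins, and melanocytes in the bulb pass pigment to it. Resident macrophages, dendritic cells, mast cells and T cells make up most of the leukocytes of unwounded skin.

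Gene levels are given as CPM, counts scaled to a common library size that is corrected for composition. The most abundant genes of a list are ranked as FPKM, which also divides by gene length. The choice of list members to name, the sums of lists and their largest parts rest on CPM, which favours long genes. List sums come from all 28 libraries normalized together. The raw counts were tested with edgeR's quasi-likelihood test (two-sided), and a gene is said to have risen or fallen where its P-value, adjusted by the Benjamini-Hochberg method over 16728 tested genes, was under 0.05. Fold changes are log2 of day 14 over day 0. Where the 4 libraries of a day did not overlap the 4 of the other, an exact permutation test on log2 CPM (two-sided) gave p = 0.0286, the smallest that 4 against 4 can give. The gene lists were chosen with earlier results of these data known, and their counts and medians are descriptions.

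The 8 libraries held 36706513 to 40492661 counts at day 0 and 38387970 to 39630672 at day 14. Markers of skin were abundant in all of them. Krt5, a keratin of the basal epidermis, had 2733, 1355, 1458 and 3148 CPM at day 0 and 2276, 2330, 2819.9 and 2387 CPM at day 14. Col1a1, which encodes a chain of type I collagen, had 4087 to 16590 CPM. The day 0 libraries varied more, with a biological coefficient of variation of 25.6% against 8.78% at day 14. Among them replicates 2 and 3 were alike (Pearson's r of log2 CPM 0.991), and the other pairs were less so (0.966 to 0.973). Day 0 replicate 1 was the nearest to day 14, with a mean r of 0.938 against 0.910 to 0.914 for the other 3. Beside results that depended on single libraries, values are also given from fits without them, and from fits without replicates 2 and 3 or without replicates 1 and 4 of day 0, both chosen after the data were seen.

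Day 14 replicate 3 departed from its 3 companions along the GC content of genes, which was known for 94.9% of the genes tested. Its log2 level rose by 0.153 per 10 percentage points of GC (Spearman's rho 0.443 across genes, which are not independent replicates), where the other day 14 libraries had slopes of -0.0671 to -0.0279. Day 0 replicates 1 and 4 had slopes of 0.125 and 0.0413, and replicates 2 and 3 of -0.0859 and -0.0801. Each library was also corrected for the GC trend of its deviation from the mean of all 8 libraries. This correction can also remove GC-linked differences between the days. It gave 4716 genes that rose and 5032 that fell. The fit without day 14 replicate 3 gave 4347 and 4736, beside 4958 and 4605 in the uncorrected fit.

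**Figure D1:**
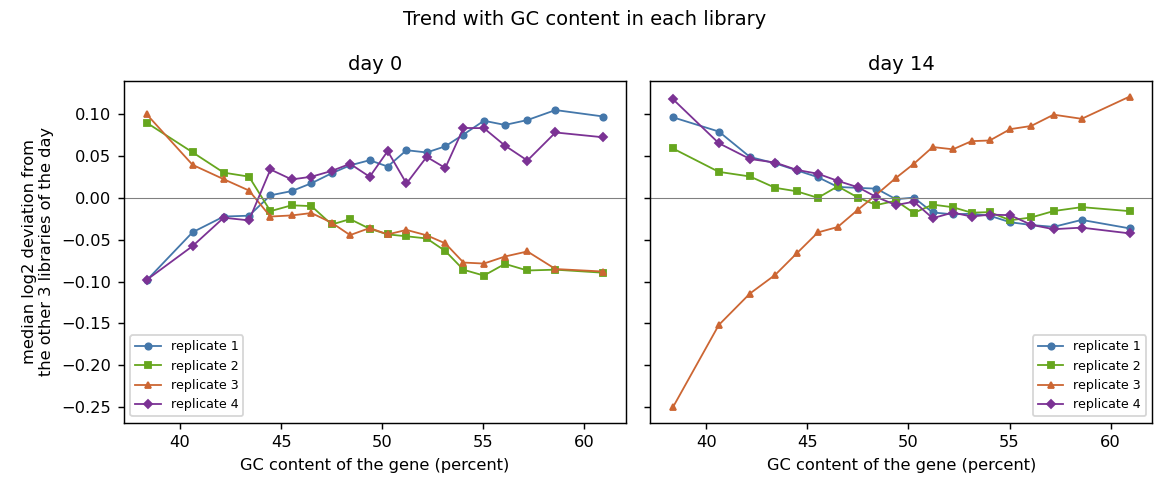
Median deviation of log2 CPM from the mean of the other 3 libraries of the same day (y axis) in 20 bins of genes by GC content (x axis, percent), for day 0 and day 14; each line is 1 library. Day 14 replicate 3 and replicates 1 and 4 of day 0 climb with GC content, with slopes of 0.153, 0.125 and 0.0413 per 10 percentage points, while the other day 14 libraries slope slightly down.

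At day 14, 4958 genes (29.6% of those tested) had risen and 4605 (27.5%) had fallen, and 7165 passed in neither direction. By the study's own cut-offs, an absolute log2 fold change above 1.5 with a P under 0.05 before adjustment, 841 genes (5.03%) were higher and 1230 (7.35%) lower. The 4 libraries of day 14 all lay above those of day 0 for 4841 genes (28.9%) and all below for 4264 (25.5%). The median log2 fold change of all genes tested was 0.02. With so many genes called, a list was read against these shares and not against 0.

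The largest increases among genes with at least 10 CPM at one of the days, apart from predicted genes, were those of Ucp1, Cyp2g1, Mc1r, Slc27a2, Slc45a2, Adamts18, Gnmt, Oca2, Shh and Foxe1. Ucp1, the proton channel that lets brown fat mitochondria make heat, had 0.158, 0.378, 1.26 and 1.03 CPM at day 0 and 612, 652, 495 and 464 CPM at day 14. All libraries of day 14 were far above all of day 0, with a log2 fold change of 9.62 (SE 0.47, edgeR adjusted p = 2.2e-06). Mc1r is the melanocortin receptor of melanocytes, Slc45a2 and Oca2 are transport proteins of the melanosome, and Shh is the hedgehog ligand made by the growing hair matrix. Cyp2g1, a cytochrome P450, had 2.47, 0.126, 0.155 and 2.30 CPM at day 0 and 49.3, 53.3, 73.9 and 61.3 CPM at day 14, and its log2 fold change of 5.57 was 8.70 without replicates 1 and 4 of day 0. The fatty acid importer Slc27a2, the metalloprotease Adamts18, the glycine methyltransferase Gnmt and the forkhead factor Foxe1 had log2 fold changes of 5.47, 5.34, 5.32 and 4.95.

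The largest decreases by the same rule were those of S100a7l2, C7, Ifitm6, Myoc, Adgre4, Hamp2, Pla2g5, Cd163, Serpinb6c and Retnla. C7, a component of the terminal complement complex, had 123, 615, 594 and 78.3 CPM at day 0 and 9.48, 10.8, 11.5 and 12.1 CPM at day 14. The day 0 libraries themselves spanned a wide range, replicates 2 and 3 being high, and the log2 fold change of -5.01 (SE 0.69, edgeR adjusted p = 0.00027) was -3.22 without them. The same pair was high for S100a7l2, a gene of the S100 family, at 2.47, 52.4, 47.7 and 3.77 CPM at day 0 and 0.204, 0.150, 0.935 and 0.303 CPM at day 14, and its log2 fold change of -6.05 became -2.98. For the protease inhibitor Serpinb6c the values with and without them were -3.75 and -1.45. Ifitm6, of the interferon-induced membrane proteins, was steadier within each day, at 18.2, 28.4, 34.4 and 20.7 CPM at day 0 and 0.866, 1.25, 0.783 and 1.44 CPM at day 14, a log2 fold change of -4.55 (SE 0.28, edgeR adjusted p = 4.6e-06). Myoc, which encodes the secreted protein myocilin, had a log2 fold change of -4.38. Adgre4 and Cd163 are receptors of macrophages, Retnla is a product of alternatively activated macrophages, Hamp2 is a hepcidin and Pla2g5 a secreted phospholipase, with log2 fold changes of -4.10, -3.76, -3.75, -4.04 and -3.97.

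Hair shaft keratins rose together. All 16 rose, with a median log2 fold change of 3.61 (4.81 without day 0 replicate 1), and their summed level went from 122.9 to 911.9 CPM at day 0 to 4379 to 5783 CPM at day 14. The promoters of 3 adjacent acidic hair keratins are shown because a TATA box motif lies close to their start. The 120 bases before the start of the gene are given 5′ to 3′ from RefSeq on GRCm38.p6, with TATAAA on the gene's strand in capitals: Krt31 at chr11:100050552-100050671, Krt33b at chr11:100029869-100029988 and Krt34 at chr11:100041555-100041674, all on the minus strand.
Krt31: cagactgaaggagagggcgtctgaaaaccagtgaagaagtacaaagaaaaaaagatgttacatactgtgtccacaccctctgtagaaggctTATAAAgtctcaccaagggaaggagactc
Krt33b: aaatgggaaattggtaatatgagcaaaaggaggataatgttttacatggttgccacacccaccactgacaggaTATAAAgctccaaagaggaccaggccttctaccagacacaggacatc
Krt34: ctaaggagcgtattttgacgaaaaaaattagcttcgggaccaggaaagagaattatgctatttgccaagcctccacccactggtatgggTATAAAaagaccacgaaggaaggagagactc
In windows from 250 bases before to 50 after the start, TATAAA was found in 5 of the 9 hair keratins with a promoter in the table (Krt31, Krt32, Krt33b, Krt34 and Krt40) and in 5.86% of 13107 tested genes. CTTTGA, a core letter run of sites for LEF and TCF factors, searched on both strands, was found in 5 of the 9 and in 12.7% of tested genes. These matches describe the sequence and say nothing of binding.

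Krt85, a hair keratin of the matrix and cortex, had 116, 20.8, 27.5 and 27.7 CPM at day 0 and 1232, 1054, 1149.7 and 919.6 CPM at day 14. Day 0 replicate 1 stood above its companions, and still every day 14 library was higher, by a log2 fold change of 4.50 (SE 0.57, edgeR adjusted p = 0.00016), or 5.42 without that replicate. Krt35, of the same layers, had 56.9, 10.1, 12.1 and 15.4 CPM at day 0 and 669, 624, 633 and 505 CPM at day 14, a log2 fold change of 4.69. Krt31 and Krt33b, whose promoters are given above, had log2 fold changes of 4.29 and 4.28. By FPKM, Krt85 was the most abundant of the 16 at day 14, at 428 ± 47.4 (SD, n = 4 libraries), followed by Krt83 at 378 ± 49.3 and Krt35 at 359 ± 39.0, which differ by less than the spread between these libraries allows to order. The smallest change was that of Krt84, a hair and tongue keratin, with a log2 fold change of 1.63 (SE 0.51, edgeR adjusted p = 0.021). It was 2.57 without day 0 replicate 1 and did not pass without day 14 replicate 2 (edgeR adjusted p = 0.051) or without replicates 2 and 3 of day 0 (0.081). Keratins of this family are alike in sequence, so that reads could have been split between them in counting. In whole tissue, more cells of a type and more RNA per cell cannot be told apart, here and in every list that follows.

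Of 53 keratin-associated proteins tested, which crosslink the keratins of the shaft, 28 rose and none fell, with a median log2 fold change of 2.33. How many passed depended on single libraries, and 2 fell without day 0 replicate 4. Day 0 replicate 1 held the most of these transcripts, 1748 CPM in all against 78.2 to 444.6 CPM in the other 3, and day 14 held 3293 to 4204 CPM. Without it 45 rose and the median was 3.83. Without replicate 2 or 3 of day 0, 14 and 15 rose, and without any 1 of the day 14 libraries 14 to 16. Krtap7-1 had 191, 50.2, 46.2 and 17.0 CPM at day 0 and 757, 662, 585 and 548 CPM at day 14, with no overlap and a log2 fold change of 3.07 (SE 0.63, edgeR adjusted p = 0.0026), and Krtap8-1 and Krtap11-1 had log2 fold changes of 3.03 and 3.51. Many of these small genes are near copies of each other, so that their counts are uncertain.

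The inner root sheath, the sleeve that moulds the growing hair, had 13 of 16 members higher and 1 lower, with a median log2 fold change of 1.80 (2.39 without day 0 replicate 1). Krt71, a keratin of the sheath, had 611, 187, 172 and 79.8 CPM at day 0 and 1538, 1326, 1340.4 and 1119 CPM at day 14. Its partner Krt25 had 419, 118, 106 and 52.8 CPM at day 0 and 1216, 1062, 1028 and 905 CPM at day 14. Neither overlapped between the days, with log2 fold changes of 2.34 (SE 0.53, edgeR adjusted p = 0.0045) and 2.60 (SE 0.56, edgeR adjusted p = 0.0033), or 3.18 and 3.52 without day 0 replicate 1. S100a3, a calcium-binding protein of the hair cuticle, and the enzymes Tgm3 and Padi3, which crosslink and modify structural proteins of the follicle, had log2 fold changes of 4.44, 3.17 and 3.00. Krt79, a keratin of the follicle duct, was the member that fell, with a log2 fold change of -0.46.

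Transcription factors and signals of the anagen matrix rose in 18 of 21 cases, none fell, and the median log2 fold change was 1.88. Without replicate 2 or 4 of day 0 or replicate 3 of day 14, 1 of them fell. Shh had 42, 9, 5 and 16 counts at day 0 and 592, 598, 645 and 610 at day 14, and in CPM 1.11, 0.227, 0.129 and 0.444 CPM at day 0 and 15.1, 14.9, 16.3 and 15.4 CPM at day 14. All day 14 libraries were close to each other and far above day 0, where replicate 1 was again the highest, and the log2 fold change was 5.01 (SE 0.48, edgeR adjusted p = 3.4e-05). Hoxc13, which activates hair keratin genes, had 14.1, 5.12, 5.45 and 8.07 CPM at day 0 and 115, 102, 103 and 93.0 CPM at day 14. Foxn1, the gene altered in nude mice, had 12.1, 4.13, 4.39 and 3.72 CPM at day 0 and 48.0, 49.9, 46.0 and 36.2 CPM at day 14. The days did not overlap for either, with log2 fold changes of 3.66 (SE 0.30, edgeR adjusted p = 1.6e-05) and 2.89 (SE 0.37, edgeR adjusted p = 0.00016). The homeobox genes Dlx3 and Msx2 and the vitamin D receptor Vdr, which is needed for hair cycling, had log2 fold changes of 3.68, 4.00 and 1.90. Lgr5, a marker of follicle stem cells that are active in growth, varied little within day 0, at 16.6, 16.6, 16.4 and 16.8 CPM at day 0 and 55.2, 51.8, 45.8 and 55.0 CPM at day 14, a log2 fold change of 1.64 (SE 0.07, edgeR adjusted p = 1.6e-06).

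Genes of follicle stem cells and the resting follicle went mostly the other way, 7 of 11 lower, 2 higher and a median log2 fold change of -0.65. Fgf18, a signal that holds follicles in rest, had 7.19, 7.84, 8.78 and 7.82 CPM at day 0 and 1.91, 2.02, 1.95 and 1.74 CPM at day 14, a log2 fold change of -2.05 (SE 0.13, edgeR adjusted p = 4.9e-06) with no overlap. Il31ra, an interleukin 31 receptor chain, had a log2 fold change of -2.86. The bulge keratin Krt15 had -0.65 on the same scale, or -0.41 without replicates 1 and 4 of day 0, and Cd34, a marker of bulge cells and of fibroblasts, had -1.32, or -0.77 without replicates 2 and 3. Sox9 and Lrig1 rose, by log2 fold changes of 0.69 and 0.37.

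**Figure D2:**
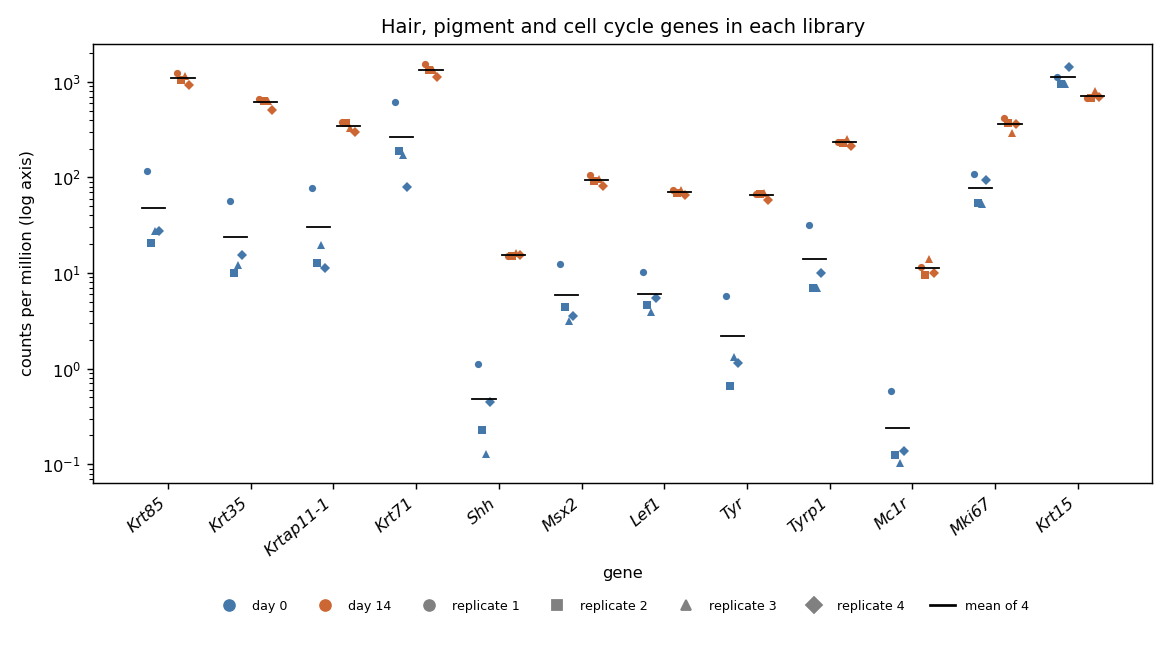
CPM on a log scale (y axis) of 12 hair, pigment and cell cycle genes (x axis) in each of the 4 libraries of day 0 and of day 14; each point is 1 library and each bar the mean of its day. Every day 14 library lies above every day 0 library for all but Krt15, for which all lie below, and day 0 replicate 1 is the highest of day 0 for Krt85 (115.8 CPM) and Tyrp1 (31.9 CPM).

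Hedgehog signalling runs from the matrix ligand Shh to its receptor Ptch1 and the factor Gli1, which are also its targets, and 9 of 13 members rose and 4 fell, with a median log2 fold change of 0.95. Ptch1 had 44.6, 44.5, 40.2 and 42.4 CPM at day 0 and 99.4, 96.5, 90.2 and 90.0 CPM at day 14. Gli1 had 10.4, 10.7, 8.91 and 12.0 CPM at day 0 and 54.7, 54.5, 40.7 and 53.1 CPM at day 14. Day 14 replicate 3 was the lowest of its day for Gli1 and still far above day 0, with log2 fold changes of 1.13 (SE 0.06, edgeR adjusted p = 3.0e-06) for Ptch1 and 2.27 (SE 0.13, edgeR adjusted p = 3.1e-06) for Gli1. The signal transducer Smo and the decoy receptor Hhip rose by log2 fold changes of 0.43 and 2.79. The 4 that fell were Dhh, the ligand of peripheral nerve, and the co-receptors Cdon, Boc and Gas1, with log2 fold changes of -1.57, -1.06, -0.58 and -0.78, that of Cdon being -0.61 without replicates 2 and 3 of day 0. All 13 calls of this list were also made without each single library.

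In the Wnt pathway 21 of 36 members rose and 6 fell, with a median log2 fold change of 0.69. The ligand Wnt10b had 5.21, 8.85, 8.23 and 4.41 CPM at day 0 and 29.1, 23.3, 21.3 and 25.1 CPM at day 14. The factor Lef1, which acts in hair matrix cells, had 10.3, 4.61, 3.87 and 5.52 CPM at day 0 and 74.1, 68.2, 73.4 and 65.6 CPM at day 14. Neither overlapped, with log2 fold changes of 1.88 (SE 0.23, edgeR adjusted p = 0.00011) and 3.53 (SE 0.28, edgeR adjusted p = 1.2e-05). The receptor Fzd1 and the secreted inhibitor Wif1 rose by log2 fold changes of 1.04 and 2.82, while Dkk2, another secreted inhibitor, had -1.60. The inhibitors Dkk1 and Dkk4, also of the growing follicle, had too few counts for the test. Dkk1 had no count in any day 0 library and 3 to 18 at day 14, and Dkk4 at most 1 count at day 0 and 4 to 19 at day 14. A count of 0 still allows a true level of up to 3 counts, which covers counting error only.

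In the BMP pathway, whose ligands hold follicles at rest, 8 of 23 rose and 6 fell, beside 29.6% and 27.5% of all genes tested. Bambi, a pseudoreceptor that blocks signalling, rose by a log2 fold change of 2.54 (SE 0.14, edgeR adjusted p = 3.1e-06). The antagonist Grem1 fell, from 16.3, 17.1, 19.4 and 23.4 CPM at day 0 to 3.13, 3.44, 4.02 and 4.44 CPM at day 14, a log2 fold change of -2.34 (SE 0.16, edgeR adjusted p = 6.9e-06). The dermal papilla, the group of fibroblasts under the matrix that instructs it, had 8 of 13 members higher and 3 lower (median log2 fold change 0.69). Corin, a protease of the papilla, had 2.90, 0.983, 0.310 and 1.55 CPM at day 0 and 24.8, 21.9, 22.2 and 22.3 CPM at day 14, a log2 fold change of 3.99 (SE 0.48, edgeR adjusted p = 0.00013). Sostdc1 and Vcan rose by log2 fold changes of 0.69 and 1.05, and the 3 that fell were Prom1, Crabp1 and Fgf7, at -1.67, -0.86 and -0.58.

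Pigment genes rose with the hair genes. Of 12 melanocyte genes, 10 rose, all with a log2 fold change over 1.5, and the median was 4.40. Promoters of 3 of them are shown because CATGTG, a motif that MITF, the master regulator of melanocytes, is known to bind, lies close to their start. The 120 bases before the start are again from RefSeq on GRCm38.p6, 5′ to 3′ on the gene's strand, with CATGTG or its reverse complement CACATG in capitals: Tyr at chr7:87493513-87493632 (minus strand), Tyrp1 at chr4:80834093-80834212 (plus strand) and Mc1r at chr8:123406962-123407081 (plus strand).
Tyr: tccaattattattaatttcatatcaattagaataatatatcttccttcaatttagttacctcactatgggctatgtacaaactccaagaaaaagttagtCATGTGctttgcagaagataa
Tyrp1: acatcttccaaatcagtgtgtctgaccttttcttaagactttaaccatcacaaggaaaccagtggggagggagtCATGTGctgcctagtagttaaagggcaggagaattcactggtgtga
Mc1r: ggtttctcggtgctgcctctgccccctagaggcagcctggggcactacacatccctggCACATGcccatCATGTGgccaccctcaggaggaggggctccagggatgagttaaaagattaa
In windows from 250 bases before to 50 after the start, the motif was found on either strand in 7 of the 8 melanocyte genes with a promoter in the table (Tyr, Tyrp1, Dct, Mc1r, Oca2, Slc24a5 and Trpm1) and in 9.58% of 13107 tested genes. A match is no evidence of binding.

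Tyr, the enzyme that starts melanin synthesis, had 5.71, 0.655, 1.32 and 1.14 CPM at day 0 and 66.6, 66.7, 68.2 and 57.9 CPM at day 14. Tyrp1, which acts after it, had 31.9, 6.96, 6.97 and 10.0 CPM at day 0 and 236, 232, 254 and 212 CPM at day 14. Dct, a further enzyme of the pathway, had 35.0, 17.1, 15.4 and 26.2 CPM at day 0 and 277, 267, 284 and 244 CPM at day 14. For all 3, day 0 replicate 1 was the highest of its day, and no day 14 library overlapped. The log2 fold changes were 4.88 (SE 0.56, edgeR adjusted p = 9.2e-05), 4.07 (SE 0.50, edgeR adjusted p = 0.00013) and 3.52 (SE 0.25, edgeR adjusted p = 8.2e-06), and without that replicate 5.97, 4.87 and 3.78. Pmel, which forms the fibrils of the melanosome, and Mlana had log2 fold changes of 4.47 and 2.70. The median of the list was between 4.12 and 5.34 without single libraries, the highest being that without day 0 replicate 1.

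The transcription factors Mitf and Sox10 behaved otherwise. Mitf had 28.7, 37.7, 36.2 and 25.3 CPM at day 0 and 28.4, 27.4, 25.4 and 28.2 CPM at day 14, which overlap, with a log2 fold change of -0.22 (SE 0.13, edgeR adjusted p = 0.15), and -0.32 without day 0 replicate 4 (edgeR adjusted p = 0.023). Sox10, which Schwann cells also express, fell, with a log2 fold change of -0.47 (SE 0.17, edgeR adjusted p = 0.039). That call was lost without any 1 of day 0 replicates 1 and 4 and day 14 replicates 1, 2 and 4 (edgeR adjusted p = 0.056 to 0.11).

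Cell division genes rose in 25 of 27 cases, and none fell (median log2 fold change 1.72). Mki67, the proliferation marker, had 108, 54.0, 52.7 and 94.1 CPM at day 0 and 423, 371, 295 and 362 CPM at day 14. Top2a, which untangles chromosomes, had 64.1, 28.6, 25.9 and 48.6 CPM at day 0 and 208, 180.4, 183 and 179.7 CPM at day 14. Replicates 1 and 4 of day 0 were above replicates 2 and 3, and every day 14 library was above all 4. The fold changes on the log2 scale were 2.23 (SE 0.25, edgeR adjusted p = 7.6e-05) and 2.17 (SE 0.27, edgeR adjusted p = 0.00014), and those of the mitotic kinases Cdk1 and Bub1 were 2.33 and 2.47. Without replicates 2 and 3 of day 0 the median of the list was 1.25, and without replicates 1 and 4 it was 2.40. Cdkn1a, an inhibitor of division, had a log2 fold change of -0.21 (SE 0.08, edgeR adjusted p = 0.051), which passed without day 0 replicate 4 (-0.26, edgeR adjusted p = 0.016) or day 14 replicate 3 (-0.29, 0.026). Which cells divided cannot be told apart in whole tissue.

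Epidermal genes moved less evenly. Among basal keratinocyte genes 2 of 11 rose and 5 fell. Krt5, whose values are given above, differed between the days by less than the spread of the libraries, with a log2 fold change of 0.17 (SE 0.26), which was 0.81 without replicates 1 and 4 of day 0 and -0.28 without replicates 2 and 3. The hemidesmosome protein Col17a1 had a log2 fold change of -0.92 (SE 0.24, edgeR adjusted p = 0.0098), or -0.35 without replicates 1 and 4.

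Suprabasal and barrier genes fell in 13 of 22 cases and rose in 4 (median log2 fold change -0.80). Krt10, the main keratin of differentiating epidermis, had 1867, 1825, 2050.4 and 1898 CPM at day 0 and 424, 451, 602 and 480 CPM at day 14. Krt77, another suprabasal keratin, had 1338, 1505, 1697 and 1418 CPM at day 0 and 133, 141, 173 and 142 CPM at day 14. Both were steady within each day and apart between them, with log2 fold changes of -1.97 (SE 0.12, edgeR adjusted p = 4.1e-06) and -3.34 (SE 0.12, edgeR adjusted p = 5.3e-07). Krt1, the partner of Krt10, had a log2 fold change of -0.43 (SE 0.15, edgeR adjusted p = 0.032), with overlapping libraries and a call lost without any 1 of the replicates 1 and 4 of day 0 and 1, 2 and 4 of day 14 (edgeR adjusted p = 0.059 to 0.097). Proteins of the cornified layer did not share 1 direction. Loricrin (Lor) and Flg2 had log2 fold changes of -1.16 (SE 0.15, edgeR adjusted p = 0.00017) and -2.55 (SE 0.18, edgeR adjusted p = 7.9e-06). Filaggrin (Flg), which aggregates keratin filaments, had 41.2, 20.5, 20.01 and 47.5 CPM at day 0 and 132, 144, 151 and 138 CPM at day 14, a log2 fold change of 2.13 (SE 0.28, edgeR adjusted p = 0.00018). Of 17 late cornified envelope genes tested, 3 rose (1 without day 14 replicate 2) and 6 fell, Lce1m with a log2 fold change of -2.42.

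Of 17 genes of the wound edge, 3 rose and 2 fell. Without day 0 replicate 1, 8 rose and the median log2 fold change went from 0.14 to 0.73. Without day 0 replicate 3, 4 fell, and the median was below 0 without replicate 2 (-0.16) or 3 (-0.14) of day 0 or replicate 3 of day 14 (-0.04). Krt17, which is also a keratin of growing follicles, had 443, 431, 433 and 337 CPM at day 0 and 1440.5, 1471, 1602 and 1365 CPM at day 14, a log2 fold change of 1.84 (SE 0.10, edgeR adjusted p = 3.7e-06). The wound keratin Krt6a had 181, 32.7, 28.5 and 100.3 CPM at day 0 and 147, 158, 193 and 166 CPM at day 14. Day 0 replicate 1 lay within the range of day 14, and the log2 fold change of 0.96 (SE 0.52, edgeR adjusted p = 0.14) was 1.63 without it (edgeR adjusted p = 0.0084). Sprr1a, a cornified envelope precursor made in injured epidermis, had a log2 fold change of -0.83 (SE 0.47, edgeR adjusted p = 0.15), and -1.17 without day 0 replicate 4 (edgeR adjusted p = 0.00013).

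Sebaceous gland genes fell in 13 of 17 cases and rose in 3 (median log2 fold change -0.46), or in 1 without replicate 2, 3 or 4 of day 14. Scd3, the stearoyl desaturase of the gland, had 278, 370.4, 341 and 271 CPM at day 0 and 38.4, 39.6, 59.0 and 53.0 CPM at day 14, a log2 fold change of -2.73 (SE 0.17, edgeR adjusted p = 5.0e-06). The wax synthase Awat2 and the long-chain fatty acid elongase Elovl4 had log2 fold changes of -1.60 and -0.94. Dgat2l6, of the same acyltransferase family, had 3.42, 34.6, 35.3 and 2.00 CPM at day 0 and 1.96, 1.35, 1.29 and 2.27 CPM at day 14, so that only replicates 2 and 3 of day 0 were high, and its log2 fold change of -3.46 (SE 0.89, edgeR adjusted p = 0.0086) was -0.68 without them (edgeR adjusted p = 0.095).

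**Figure D3:**
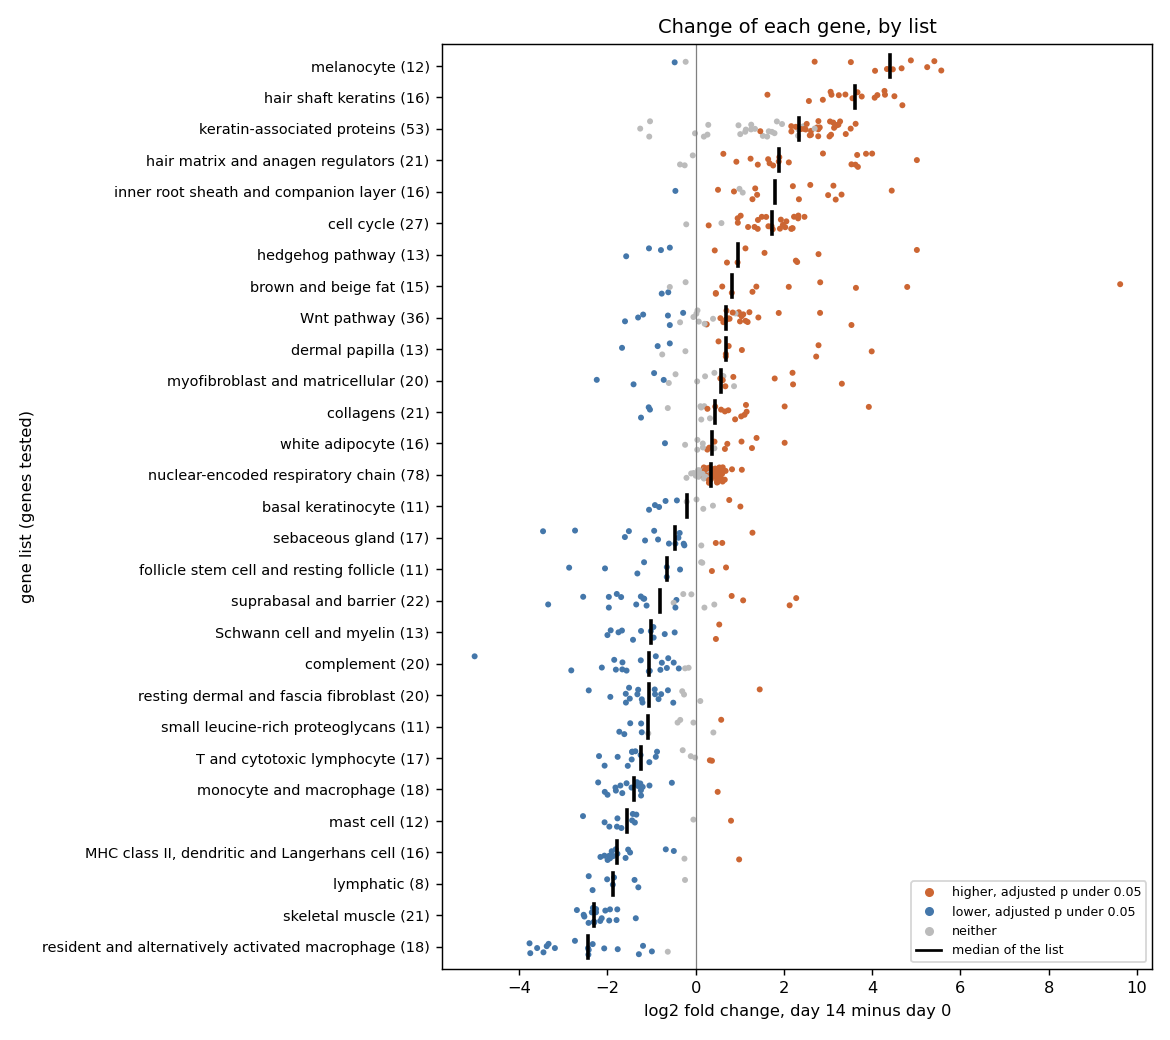
Log2 fold change of day 14 over day 0 (x axis) of each gene tested in each list (y axis, with the number tested); each point is 1 gene, coloured by the edgeR call, and each black bar the median of its list. The medians of melanocyte genes (4.40) and hair shaft keratins (3.61) lie farthest to the right, and those of resident macrophage (-2.43) and skeletal muscle genes (-2.30) farthest to the left.

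Most genes of macrophages and of antigen presentation were lower at day 14. Of 18 monocyte and macrophage genes 17 fell and 1 rose (median log2 fold change -1.39). Of 18 genes of resident and alternatively activated macrophages 17 fell and none rose (median -2.43), and of 16 genes of antigen presentation and dendritic cells 14 fell and 1 rose (median -1.79). The summed levels of the 3 lists were 2632 to 3551, 1763 to 3725 and 4013 to 6877 CPM at day 0. At day 14 they were 1310 to 1391, 615.6 to 660 and 1195 to 1534 CPM, with no overlap in any of the 3.

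Cd163, a scavenger receptor of resident macrophages, had 103, 176, 172 and 63.0 CPM at day 0 and 9.45, 9.23, 9.40 and 9.71 CPM at day 14. The day 14 values were nearly equal and far below the lowest of day 0, a log2 fold change of -3.76 (SE 0.31, edgeR adjusted p = 1.6e-05). Mrc1, the mannose receptor, had 274, 417, 416 and 171 CPM at day 0 and 60.1, 59.3, 50.6 and 66.3 CPM at day 14. Retnla had 174, 504, 504 and 229 CPM at day 0 and 27.4, 25.1, 28.8 and 24.0 CPM at day 14. Replicates 2 and 3 of day 0 were the highest for both, with log2 fold changes of -2.44 (SE 0.26, edgeR adjusted p = 6.6e-05) and -3.75 (SE 0.36, edgeR adjusted p = 3.3e-05), the latter being -2.96 without these replicates. F13a1, the factor XIII subunit made by such macrophages, and Gas6, a ligand that marks cells for uptake, had log2 fold changes of -2.73 and -1.28.

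Csf1r, the receptor for macrophage colony-stimulating factor, had 272, 332, 329 and 207 CPM at day 0 and 62.9, 69.6, 70.9 and 70.7 CPM at day 14. Lyz2, lysozyme, had 1266, 1376, 1469.8 and 934 CPM at day 0 and 615, 600.1, 586 and 645 CPM at day 14. No library overlapped, and the changes on the log2 scale were -2.06 (SE 0.14, edgeR adjusted p = 7.5e-06), -1.04 (SE 0.13, edgeR adjusted p = 0.00015) and, for the complement chain C1qb of macrophages, -1.56. The monocyte gene Ly6c2 had 31.6, 3.07, 4.47 and 24.1 CPM at day 0 and 3.31, 2.94, 3.39 and 4.03 CPM at day 14. It was high in replicates 1 and 4 of day 0 and overlapped otherwise, and its log2 fold change of -2.21 (SE 0.68, edgeR adjusted p = 0.020) no longer passed without day 0 replicate 1 (edgeR adjusted p = 0.051) or day 14 replicate 1 (0.052), and was -0.14 without replicates 1 and 4 of day 0.

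Cd74, the chaperone of MHC class II molecules, had 1676, 2909.5, 2996 and 1921 CPM at day 0 and 459, 502, 611 and 561 CPM at day 14. In FPKM that was 1647 ± 474 at day 0 and 384 ± 46.0 at day 14 (SD, n = 4 libraries each). The log2 fold change was -2.16 (SE 0.20, edgeR adjusted p = 3.1e-05), and those of the class II chains H2-Aa and H2-Eb1 were -2.06 and -1.94. Itgax, the CD11c integrin of dendritic cells and of some macrophages, went against its list, from 20.7, 14.4, 12.5 and 18.4 CPM at day 0 to 32.9, 31.8, 31.6 and 34.4 CPM at day 14, a log2 fold change of 0.99 (SE 0.15, edgeR adjusted p = 0.00038).

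T and cytotoxic cell genes fell in 12 of 17 cases and rose in 2 (median log2 fold change -1.25). Cd3e, a chain of the T cell receptor complex, had 6.32, 6.00, 6.45 and 4.85 CPM at day 0 and 2.47, 2.05, 2.53 and 1.61 CPM at day 14. Cd4, the helper T cell co-receptor, had 8.82, 12.2, 11.2 and 5.80 CPM at day 0 and 2.47, 2.82, 3.66 and 4.16 CPM at day 14. Both fell without overlap, by log2 fold changes of -1.45 (SE 0.18, edgeR adjusted p = 0.00015) and -1.54 (SE 0.26, edgeR adjusted p = 0.00081), and the perforin gene Prf1 had -2.06. The 2 that rose were Lck, with a log2 fold change of 0.37 (SE 0.14, edgeR adjusted p = 0.044), and Thy1, which fibroblasts also express, with 0.32. The call of Lck was lost without any 1 library other than day 0 replicate 3 (edgeR adjusted p = 0.070 to 0.16), and that of Thy1 without replicates 2 and 3 of day 0 (0.056). The summed level of the list, with Thy1 as its largest part, overlapped between the days, at 273.5 to 303.4 CPM and 248.8 to 296.2 CPM. Of 8 B and plasma cell genes listed, 7 were in the table and 2 passed the filter on low counts, and Cd79b fell, with a log2 fold change of -1.35.

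Mast cell genes fell in 10 of 12 cases and rose in 1, with a median log2 fold change of -1.56, and the same counts came from each of the 8 fits without a single library. The chymase Cma1 had 125, 127, 125 and 114 CPM at day 0 and 40.8, 37.8, 52.8 and 50.1 CPM at day 14. The protease Mcpt4 had 222, 255, 258 and 221 CPM at day 0 and 64.8, 61.5, 91.4 and 80.7 CPM at day 14. The days were apart for both, with log2 fold changes of -1.44 (SE 0.11, edgeR adjusted p = 1.0e-05) and -1.68 (SE 0.13, edgeR adjusted p = 1.2e-05), and the carboxypeptidase Cpa3 and the interleukin 33 receptor Il1rl1 had -2.06 and -2.55. Kit, the stem cell factor receptor of mast cells and melanocytes, was the member that rose, from 20.9, 26.6, 25.3 and 23.1 CPM at day 0 to 42.4, 42.4, 42.3 and 40.2 CPM at day 14, a log2 fold change of 0.80 (SE 0.08, edgeR adjusted p = 4.6e-05).

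Of 16 neutrophil genes 9 could be tested, of which 4 fell and 1 rose. Ly6g, their defining marker, had 0 or 1 count in every library. Csf3r, the receptor for granulocyte colony-stimulating factor, had 15.2, 6.22, 8.47 and 7.13 CPM at day 0 and 3.29, 3.02, 2.73 and 3.96 CPM at day 14, without overlap and with a log2 fold change of -1.51 (SE 0.28, edgeR adjusted p = 0.0015). Retnlg had 30, 52, 39 and 10 counts at day 0 and 0, 1, 1 and 1 at day 14. S100a9, which keratinocytes also make, had 16.2, 5.90, 4.93 and 20.2 CPM at day 0 and 6.42, 5.89, 7.45 and 6.86 CPM at day 14, with overlap and a log2 fold change of -0.83 (SE 0.42, edgeR adjusted p = 0.12), which passed without replicate 2 or 3 of day 0 (-1.05 and -1.08, edgeR adjusted p = 0.048 and 0.027). Camp, the cathelicidin, was the member that rose, from 0.105, 0.126, 0.387 and 0.222 CPM at day 0 to 1.86, 1.95, 2.73 and 3.28 CPM at day 14, a log2 fold change of 3.53 (SE 0.40, edgeR adjusted p = 9.0e-05).

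Of 18 inflammatory cytokines and enzymes tested, 9 fell and none rose (median log2 fold change -0.91). Il1b, a cytokine of activated myeloid cells, had 13.2, 8.19, 7.56 and 18.6 CPM at day 0 and 2.09, 1.32, 1.72 and 2.35 CPM at day 14, a log2 fold change of -2.67 (SE 0.32, edgeR adjusted p = 0.00012). The alarmin Il33 had -1.25 on that scale (SE 0.16, edgeR adjusted p = 0.00020). Cxcl2, which attracts neutrophils, had 3.42, 0.605, 0.181 and 9.54 CPM at day 0 and 0.688, 0.424, 0.455 and 0.630 CPM at day 14. It was high in replicates 1 and 4 of day 0 only, and its log2 fold change of -2.63 (SE 0.98, edgeR adjusted p = 0.044) was -1.34 without replicate 4 (edgeR adjusted p = 0.17) and also did not pass without day 0 replicate 1 or any 1 of the day 14 libraries (0.061 to 0.096). Without replicates 1 and 4 of day 0, 3 of the list rose, 8 fell and the median was -0.11. Homeostatic chemokines fell in 12 of 15 cases and rose in 1, or in 2 without day 0 replicate 4. Ccl8, made by skin macrophages, had 209, 359.8, 358 and 152 CPM at day 0 and 46.6, 42.3, 48.5 and 50.6 CPM at day 14, a log2 fold change of -2.52 (SE 0.26, edgeR adjusted p = 5.6e-05), and Cxcl13, which attracts B cells, had -2.73. Cxcl14, a chemokine of epithelium, was the 1 that rose, from 113, 106, 104 and 88.3 CPM at day 0 to 255, 235, 254 and 237 CPM at day 14, a log2 fold change of 1.26 (SE 0.08, edgeR adjusted p = 5.8e-06).

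Interferon-stimulated genes had no common direction, with 5 of 16 higher, 2 lower and a median log2 fold change of 0.26, and 1 lower without day 0 replicate 1 or any 1 of the day 14 libraries. Isg15, a ubiquitin-like protein, had 26.0, 9.20, 8.08 and 18.0 CPM at day 0 and 38.0, 39.1, 42.0 and 44.5 CPM at day 14, a log2 fold change of 1.42 (SE 0.33, edgeR adjusted p = 0.0051). Irf7, a transcription factor of the response, had 124, 24.0, 27.2 and 113 CPM at day 0 and 82.7, 86.3, 93.7 and 89.5 CPM at day 14, with overlap and a log2 fold change of 0.29 (SE 0.49, edgeR adjusted p = 0.64). Replicates 1 and 4 of day 0 had more of both than replicates 2 and 3. Without the former 11 of the list rose and the median was 0.88, and without the latter 4 rose, 5 fell and it was -0.11. For Irf7 these values were 1.79 and -0.45.

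Complement genes fell in 18 of 20 cases, none rose, and the median log2 fold change was -1.05. Beside C7, C6 had 16.7, 34.1, 33.9 and 7.82 CPM at day 0 and 3.31, 2.97, 3.08 and 3.78 CPM at day 14. Replicates 2 and 3 of day 0 were the highest, and the log2 fold change of -2.82 (SE 0.43, edgeR adjusted p = 0.00045) was -1.93 without them. C3, the central component, had a log2 fold change of -1.24 (SE 0.30, edgeR adjusted p = 0.0060), or -0.51 without them, and C4b had -0.76. By FPKM the most abundant of the list was Cfd, also a product of fat cells, at 3032 ± 293 at day 0 and 2671 ± 164 at day 14 (SD, n = 4 libraries each). Its log2 fold change of -0.24 (SE 0.10, edgeR adjusted p = 0.058) passed without day 0 replicate 1 (-0.30, edgeR adjusted p = 0.015) or day 14 replicate 3 (-0.34, 0.025).

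**Figure D4:**
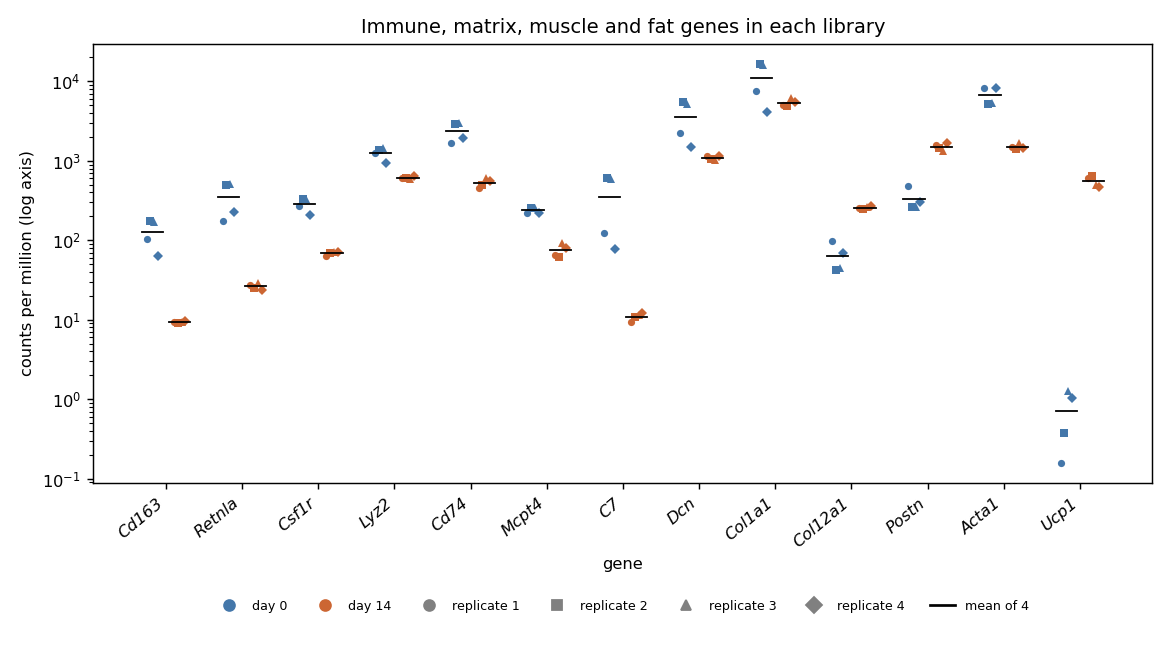
CPM on a log scale (y axis) of 13 leukocyte, complement, matrix, muscle and fat genes (x axis) in each of the 4 libraries of day 0 and of day 14; each point is 1 library and each bar the mean of its day. Cd163 falls from between 63.0 and 175.6 CPM to between 9.23 and 9.71 CPM, while the points of Col1a1 overlap between the days.

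Matrix genes went in both directions. Of 21 collagen genes 12 rose and 3 fell (median log2 fold change 0.45). The fibrillar collagens Col1a1, Col1a2 and Col3a1, which by FPKM were the most abundant of them on both days, did not share in the rise. Col1a1 had 7559, 16590, 16153 and 4087 CPM at day 0 and 5096, 4864, 6212 and 5514 CPM at day 14. Replicates 1 to 3 of day 0 were above all of day 14 and replicate 4 was below, with a log2 fold change of -1.03 (SE 0.39, edgeR adjusted p = 0.044). It did not pass without any 1 of day 0 replicates 2 and 3 or of the 4 day 14 libraries (edgeR adjusted p = 0.065 to 0.12). Col1a2, with a log2 fold change of -1.24 (SE 0.41, edgeR adjusted p = 0.027), lost its call in the same 6 fits (0.051 to 0.072). Col3a1 had -0.63 (SE 0.34, edgeR adjusted p = 0.14), or -0.88 without day 0 replicate 4 (edgeR adjusted p = 0.0072). Without replicates 2 and 3 of day 0 the 3 values were -0.13, -0.24 and 0.15.

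Among the 12 that rose were collagens of fibril surfaces and of basement membranes. Col11a1, a minor partner in collagen fibrils, had 12.3, 6.05, 4.49 and 6.16 CPM at day 0 and 108, 102, 116 and 114 CPM at day 14. Col12a1, which sits on fibril surfaces, had 99.4, 42.3, 45.2 and 68.9 CPM at day 0 and 258, 248, 261 and 269 CPM at day 14. No day 14 library reached down to day 0, with log2 fold changes of 3.92 (SE 0.28, edgeR adjusted p = 8.2e-06) and 2.02 (SE 0.25, edgeR adjusted p = 0.00014), and the basement membrane chains Col4a1 and Col4a2 had 1.03 and 1.16.

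Myofibroblast and matricellular genes rose in 8 of 20 cases and fell in 4 (median log2 fold change 0.58). Postn, periostin, a matricellular protein of wounds, had 476, 264, 261 and 307 CPM at day 0 and 1585, 1466, 1313 and 1685 CPM at day 14. Lrrc15, a marker of activated fibroblasts, had 78.8, 18.5, 22.7 and 25.6 CPM at day 0 and 365, 346, 384 and 352 CPM at day 14. Every day 14 library was above every day 0 library, with log2 fold changes of 2.21 (SE 0.20, edgeR adjusted p = 2.4e-05) and 3.31 (SE 0.44, edgeR adjusted p = 0.00022), and of 2.20 for the protease Adam12. Tnc, tenascin C, had 110.1, 11.1, 10.4 and 47.5 CPM at day 0 and 149, 154, 154 and 163 CPM at day 14. Its log2 fold change of 1.79 (SE 0.67, edgeR adjusted p = 0.043) passed, among the fits without a single library, only without day 0 replicate 1 (2.76, edgeR adjusted p = 0.0018), the 7 others giving 0.063 to 0.081. Tgfbi, a matrix protein induced by TGF-beta, fell from 788, 873, 854 and 668 CPM at day 0 to 152, 161, 188 and 174 CPM at day 14, a log2 fold change of -2.24 (SE 0.11, edgeR adjusted p = 2.2e-06). Fn1, fibronectin, had a log2 fold change of -0.61 (SE 0.33, edgeR adjusted p = 0.15), or -0.85 without day 0 replicate 4 (edgeR adjusted p = 0.013).

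Small leucine-rich proteoglycans, which space collagen fibrils, fell in 5 of 11 cases and rose in 1 (median log2 fold change -1.07). Decorin (Dcn) had 2213, 5488, 5246 and 1494 CPM at day 0 and 1136, 1046, 1025 and 1153 CPM at day 14. Replicates 2 and 3 of day 0 were far above the rest, and the log2 fold change of -1.73 (SE 0.38, edgeR adjusted p = 0.0037) was -0.79 without them, in which fit the median of the list was -0.05. Biglycan (Bgn) rose by a log2 fold change of 0.58 (SE 0.13, edgeR adjusted p = 0.0050). Elastic fibre genes rose in 4 of 15 cases and fell in 2 (4 without day 0 replicate 4 and 1 without day 14 replicate 1), with Fbn2, a fibrillin of growing tissue, at a log2 fold change of 2.36. Collagen crosslinking genes rose in 1 of 19 cases (2 without day 0 replicate 1) and fell in 8.

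Among matrix proteases and inhibitors 6 of 22 rose and 8 fell, beside 29.6% and 27.5% of all genes tested. Mmp12, the macrophage elastase, had 62.0, 9.45, 8.52 and 26.8 CPM at day 0 and 267, 259.7, 209 and 268 CPM at day 14. Mmp9, gelatinase B, had 21.6, 63.9, 61.6 and 18.1 CPM at day 0 and 2.19, 5.59, 3.01 and 3.18 CPM at day 14. They went in opposite directions without overlap, with log2 fold changes of 3.23 (SE 0.59, edgeR adjusted p = 0.0013) and -3.56 (SE 0.49, edgeR adjusted p = 0.00027), which were 2.48 and -2.53 without replicates 2 and 3 of day 0. The protease Prss35 rose by a log2 fold change of 4.28 (SE 0.32, edgeR adjusted p = 1.0e-05). Genes of resting dermal and fascia fibroblasts fell in 16 of 20 cases and rose in 1 (median log2 fold change -1.06). Scara5, a ferritin receptor, had 190, 469, 455 and 124 CPM at day 0 and 60.3, 54.8, 57.0 and 59.2 CPM at day 14, a log2 fold change of -2.42 (SE 0.39, edgeR adjusted p = 0.00067), or -1.46 without replicates 2 and 3 of day 0. Procr, the protein C receptor, was the member that rose, with a log2 fold change of 1.45. The median of the list was -0.64 without replicates 2 and 3 of day 0 and -1.51 without replicates 1 and 4.

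Skeletal muscle genes all fell, 21 of 21, with a median log2 fold change of -2.30. Acta1, skeletal actin, had 8198, 5243, 5342 and 8288 CPM at day 0 and 1512, 1412, 1697 and 1433 CPM at day 14. Replicates 1 and 4 of day 0 held more of it than replicates 2 and 3, and all held more than any day 14 library, with a log2 fold change of -2.16 (SE 0.18, edgeR adjusted p = 1.6e-05). Myh4, a fast myosin heavy chain, had -2.33 on the log2 scale (SE 0.25, edgeR adjusted p = 5.8e-05). The list made up 32050 to 57170 CPM at day 0 and 8179 to 10130 CPM at day 14. With its genes outside the library sizes 4721 genes rose and 4808 fell. Myod1, the master regulator of muscle cells, had a log2 fold change of -2.41, or -1.56 without replicates 1 and 4 of day 0. Myh8, the perinatal myosin of regenerating fibres, had 17.1, 4.54, 3.69 and 15.1 CPM at day 0 and 19.01, 18.9, 20.8 and 23.2 CPM at day 14, a log2 fold change of 1.02 (SE 0.45, edgeR adjusted p = 0.079), which passed without day 0 replicate 1 (1.40, edgeR adjusted p = 0.022) or replicate 4 (1.28, 0.043). The regeneration list, 4 of 12 lower and none higher (1 without replicate 1 or 4 of day 0), depended on the day 0 libraries, with 11 lower and 1 higher without replicates 2 and 3, and 3 lower and 7 higher without replicates 1 and 4.

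Fat cell genes rose more often than they fell. Of 16 white adipocyte genes 9 rose and 1 fell (2 without day 0 replicate 1 or day 14 replicate 3), with a median log2 fold change of 0.37, and of 15 brown and beige fat genes 11 rose and 2 fell (median 0.82). Fabp4, a fatty acid carrier, had 958, 1049, 974 and 1346 CPM at day 0 and 2746, 2712, 2317 and 2713 CPM at day 14. Pck1, which makes the glycerol backbone for triglyceride, had 177, 129, 133 and 212 CPM at day 0 and 683, 700.3, 638 and 618 CPM at day 14. All day 14 libraries were above day 0, with log2 fold changes of 1.28 (SE 0.12, edgeR adjusted p = 3.6e-05) and 2.02 (SE 0.16, edgeR adjusted p = 1.2e-05). Beside Ucp1, the proton channel Otop1 had 0.5002, 0.680, 0.671 and 1.19 CPM at day 0 and 21.9, 24.6, 20.8 and 17.2 CPM at day 14. The potassium channel Kcnk3 had 2.37, 3.43, 4.52 and 1.83 CPM at day 0 and 38.9, 40.5, 38.1 and 33.6 CPM at day 14. Cidea, a lipid droplet protein of brown fat and sebaceous gland, had 81.8, 70.9, 78.6 and 108 CPM at day 0 and 219.8, 223, 200.5 and 186 CPM at day 14. Their log2 fold changes were 4.79 (SE 0.25, edgeR adjusted p = 2.6e-06), 3.63 (SE 0.25, edgeR adjusted p = 6.8e-06) and 1.29 (SE 0.13, edgeR adjusted p = 4.2e-05), again with no overlap. The 2 members that fell were Zic1, a factor of classical brown fat, with -0.77 on the log2 scale (SE 0.13, edgeR adjusted p = 0.00078), and Ppargc1a, the coactivator of mitochondrial genes, with -0.62 (SE 0.21, edgeR adjusted p = 0.028). The latter did not pass without any 1 of day 0 replicates 2 and 4 and day 14 replicates 1 and 3 (edgeR adjusted p = 0.056 to 0.082). The summed level of the list was 357.6 to 422.3 CPM at day 0 and 1087 to 1391 CPM at day 14, with Ucp1 as its largest part at day 14.

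Nuclear genes of the respiratory chain rose in 60 of 78 cases and none fell, by small amounts (median log2 fold change 0.35), and 1 fell without replicate 3 of either day. Cox6a1, a subunit of cytochrome oxidase, had 1.05 on that scale (SE 0.08, edgeR adjusted p = 8.5e-06). Glycolysis and hypoxia genes fell in 13 of 22 cases and rose in 4. The muscle form of phosphofructokinase, Pfkm, and the aldolase Aldoa had log2 fold changes of -2.12 (SE 0.19, edgeR adjusted p = 2.2e-05) and -1.50 (SE 0.16, edgeR adjusted p = 5.8e-05), while Eno1, an enolase, rose by 0.73. The skeletal muscle list moved with the first 2, and its part in their change was not tested. Ribosomal protein genes rose in 36 of 84 cases with a median log2 fold change of 0.19, which was -0.0015 with length offsets. Without replicate 2 or 3 of day 0, 22 rose, and without replicate 1, 2 or 3 of day 14, 23, 19 and 20 rose. With all 8 libraries 29.6% of all genes tested rose. The 1 that fell (2 without day 14 replicate 3) was Rpl3l, the muscle form, with -2.43. Genes of fatty acid synthesis (2 higher and 2 lower of 16) and of cholesterol synthesis (2 higher and 5 lower of 21) were mostly not called. For the former 4 rose without day 0 replicate 2, 4 fell without day 0 replicate 1, and 1 fell without replicate 3 or 4 of day 0 or replicate 1 or 3 of day 14. For the latter 1 rose in each fit without a single library other than that without day 0 replicate 4.

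Lymphatic genes fell in 7 of 8 cases (median log2 fold change -1.86), whereas of 15 endothelial genes 5 fell and 1 rose, and none rose without day 0 replicate 1 or replicate 2, 3 or 4 of day 14. Prox1, the master regulator of lymphatic endothelium, had 8.64, 8.95, 10.1 and 7.41 CPM at day 0 and 2.90, 3.24, 3.26 and 4.06 CPM at day 14. The lymphatic chemokine Ccl21a had 164, 235, 240.1 and 142 CPM at day 0 and 41.9, 44.0, 52.8 and 55.9 CPM at day 14. Both were lower in every day 14 library, with log2 fold changes of -1.38 (SE 0.15, edgeR adjusted p = 7.0e-05) and -2.003 (SE 0.18, edgeR adjusted p = 2.8e-05), and Lyve1, which macrophages also carry, had -2.42. Cdh5, the cadherin of all endothelium, had 109.5, 133, 127 and 94.2 CPM at day 0 and 119.8, 123, 135 and 129 CPM at day 14, with overlap and a log2 fold change of 0.13 (SE 0.11, edgeR adjusted p = 0.33). Schwann cell and myelin genes fell in 11 of 13 cases and rose in 2 (median log2 fold change -1.01). The myelin protein gene Mbp had a log2 fold change of -1.92 (SE 0.15, edgeR adjusted p = 1.0e-05). Pericyte and smooth muscle genes rose in 4 of 11 cases and fell in 5, with log2 fold changes of 0.29 for Rgs5 of pericytes and -1.67 for Myh11 of smooth muscle, and of 7 red blood cell genes 1 rose and none fell. Of the latter 2 rose without day 0 replicate 3 or day 14 replicate 1, and 1 fell without day 0 replicate 2 or day 14 replicate 3.

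Immediate early genes, which respond quickly to handling and injury, fell in 10 of 20 cases and rose in 5. Fos had 29.6, 22.4, 22.0 and 30.1 CPM at day 0 and 11.9, 12.9, 9.78 and 11.1 CPM at day 14. Egr1 had 56.4, 55.1, 52.1 and 42.8 CPM at day 0 and 111, 112, 117 and 109 CPM at day 14. These went in opposite directions, by log2 fold changes of -1.19 (SE 0.14, edgeR adjusted p = 0.00010) and 1.12 (SE 0.09, edgeR adjusted p = 1.2e-05), and the phosphatase Dusp1 had -1.64. Among 17 clock genes 6 fell and none rose (1 without day 0 replicate 4), and the direction depended on which day 0 libraries entered. Arntl, the BMAL1 gene, had 12.5, 45.1, 46.7 and 6.88 CPM at day 0 and 10.7, 10.8, 10.6 and 10.3 CPM at day 14. It was high in replicates 2 and 3 of day 0 alone, and its log2 fold change of -1.39 (SE 0.53, edgeR adjusted p = 0.048) was 0.11 without them. The call was lost in 6 of the 8 fits without a single library, those without day 0 replicate 2 or 3 or any 1 of the day 14 libraries (edgeR adjusted p = 0.090 to 0.13). Without replicates 1 and 4 of day 0, 10 clock genes rose and 7 fell. The glucocorticoid-induced gene Tsc22d3 had the opposite split, at 368, 84.4, 85.9 and 325 CPM at day 0 and 70.5, 69.1, 75.2 and 75.3 CPM at day 14, with a log2 fold change of -1.57 (SE 0.47, edgeR adjusted p = 0.017) and of -0.23 without replicates 1 and 4.

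Of 10 necroptosis genes 2 rose and 3 fell, shares near those of all genes, and the 2 did not both rise in any fit without a single library. Without day 0 replicate 1 or 4 there was 1 that rose, and none did in the other 6 fits. Mlkl, which the mice carry intact, had 14.8, 9.85, 11.4 and 12.5 CPM at day 0 and 13.2, 12.4, 10.8 and 14.5 CPM at day 14. Ripk3, the kinase that activates it, had 14.2, 7.91, 6.92 and 9.85 CPM at day 0 and 10.6, 10.3, 10.9 and 9.28 CPM at day 14. Both overlapped between the days, with log2 fold changes of 0.07 (SE 0.14) and 0.08 (SE 0.21), so that no difference was detectable beyond the spread of the libraries. Of 13 genes of the IGF system 3 rose and 4 fell, with Igfbp3, a binding protein, at a log2 fold change of -2.25 (SE 0.18, edgeR adjusted p = 1.4e-05). Of 16 ligands and receptors of TGF-beta and PDGF 2 rose and 7 fell, with the ligand Tgfb2 at -1.51 on the log2 scale.

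Day 12 was set beside day 14 to show which levels still differed 2 days earlier. In a separate fit of the 8 libraries of these days, 4513 genes (27% of 16701 tested) were higher and 4709 (28.2%) lower at day 14 than at day 12. This comparison shares the day 14 libraries with the one above, so each is given on its own. Hair shaft keratins were higher than at day 12 in 13 of 16 cases and lower in 2, melanocyte genes higher in 10 of 12 and lower in 1, and anagen regulators higher in 15 of 21 and lower in 1. Keratin-associated proteins were higher in 10 and lower in 24 of the 54 cases tested between these days. Krt85 was above day 12 by a log2 fold change of 1.01 (edgeR adjusted p = 8.6e-08), Tyrp1 by 1.02 (5.9e-09) and Shh by 0.94 (1.4e-07). Krt71 of the inner root sheath was below it, with a log2 fold change of -0.27 (edgeR adjusted p = 0.024).

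Macrophage, resident macrophage and antigen presentation genes were lower than at day 12 in 17 of 18, 18 of 18 and 14 of 16 cases, and none was higher. The log2 fold changes of day 14 over day 12 were -2.82 for Cd163 (edgeR adjusted p = 2.5e-14) and -1.12 for Cd74 (9.8e-09). Most matrix genes were also lower, collagens in 15 of 21 cases with 4 higher, myofibroblast and matricellular genes in 13 of 20 with 4 higher, proteases and inhibitors in 20 of 22 with 1 higher, and elastic fibre genes in 14 of 15 and leucine-rich proteoglycans in 11 of 11 with none higher. Col4a1, Col4a2 and Col11a1 were among the collagens above day 12, by log2 fold changes of 0.41, 0.45 and 0.24 (edgeR adjusted p = 5.0e-06, 1.3e-05 and 0.0011). Col1a1, Postn and Prss35 had log2 fold changes over day 12 of -1.20, -0.65 and -1.76 (edgeR adjusted p = 2.1e-09, 4.7e-07 and 1.4e-12). White adipocyte genes were higher in 16 of 16 cases, brown fat genes in 12 of 15 with 1 lower, and respiratory chain genes in 78 of 78. Ucp1 was above day 12 by a log2 fold change of 6.17 (edgeR adjusted p = 1.5e-13).

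Across all 7 days the path to day 14 was not steady. In mean CPM of 4 libraries (± SD), from 28 libraries normalized together, Krt85 was 47.7 ± 44.5 at day 0, 0.452 ± 0.240 at day 3, 55.9 ± 4.15 at day 10, 528 ± 67.8 at day 12 and 1065 ± 139 at day 14. At day 3 its level was thus below that of every day 0 library. Ucp1 was 0.710 ± 0.528 CPM at day 0, 1809 ± 130.3 at day 5, 305 ± 14.9 at day 10, 7.51 ± 2.30 at day 12 and 543 ± 86.9 at day 14, so that day 12 was low between 2 higher days. Cd163 was 96.5 ± 3.64 CPM at day 7, 16.5 ± 0.526 at day 10, 65.2 ± 3.77 at day 12 and 9.23 ± 0.181 at day 14. Krt77 was 773 ± 49.95, 163 ± 17.7, 841 ± 46.0 and 144 ± 19.3 CPM on the same days. For both, day 12 lay above days 10 and 14. Acta1, the muscle actin, was 6761 ± 1626 CPM at day 0 and between 1348 ± 81.0 (day 7) and 2763 ± 322 (day 10) on the later days. Differences between the wound sites taken on different days cannot be told apart from differences in time.

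**Figure D5:**
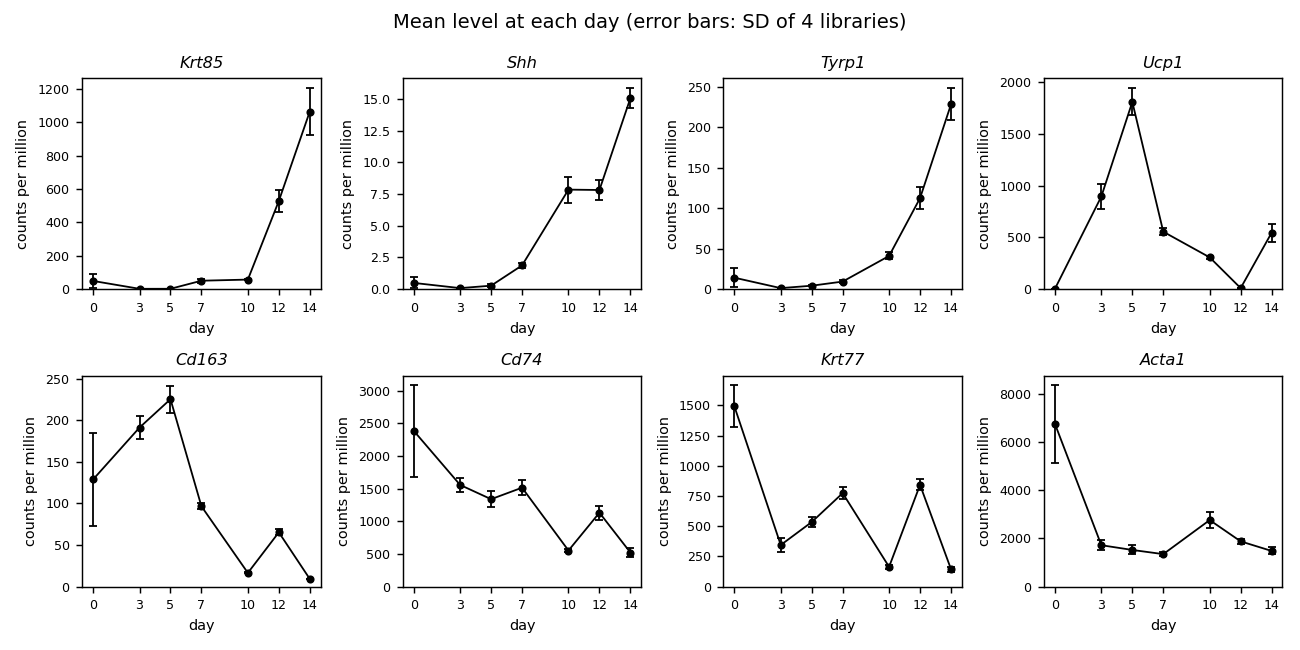
Mean CPM (y axis, linear) by day label (x axis) for 8 genes, 1 panel each, with the SD over 4 libraries as error bars. Krt85, Shh and Tyrp1 have their highest mean at day 14, Ucp1 dips to 7.51 CPM at day 12, and Cd163 and Krt77 are lower at days 10 and 14 than at day 12.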

How the data were processed

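Whole wound sites were profiled by bulk RNA-seq, with 4 libraries at each of 7 time points, and the 8 libraries of day 0 and day 14 were compared. Per the labels, RNA was extracted with TRIzol and the VAHTS Universal V6 kit was used to prepare libraries. The submitters' processing notes name fastp, R 3.2.0 and the build mm10. The aligner, the counter, the annotation and whether counting used strand are not given in the sources used here, so that reads of a gene and its antisense partner cannot be told apart. The authors deposited raw counts per gene symbol for 29068 genes, 347 of them with no count in any library, and FPKM values of the same genes, which divide by gene length and library size. Every column was assigned to a sample by its name, and no column was left out.

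Genes with low counts were removed with edgeR's filterByExpr, which left 16728 genes, and library sizes were corrected by TMM. The main test was edgeR 4.0.16 in R 4.3.3 (glmQLFit and glmQLFTest) on the 8 libraries without covariates, with 6 residual degrees of freedom and Benjamini-Hochberg adjustment over all genes tested. SE was the log2 fold change divided by the square root of F. DESeq2 1.42.0 and limma 3.58.1 served as alternatives. Simulated data with known changes were used to test edgeR alone, with the replicate block and with GC offsets. DESeq2, limma on FPKM and limma with library weights were tested in the same way, and the other settings were not. An exact permutation test of log2 CPM (prior count 2, 70 splits) was added for single genes. CPM in the text refers to the TMM-corrected library size. For single genes it was computed from the 8 libraries after the filter. For sums of lists and for means by day it was computed from all 28 libraries without the filter, so the 2 scales differ slightly.

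Groups came from the labels. Day 0 and day 14 share replicate numbers, and the deviations of same-numbered libraries from their group means correlated at 0.0569, -0.00759, -0.0466 and -0.0263, so the numbers were not used as pairs. From each of 57 gene lists the 3 members with the highest mean CPM and the 2 with the largest called change could be named. Other members could be added to show which did or did not follow. From all genes the 10 largest changes in each direction were named. These were taken among genes with no overlap, an adjusted p under 0.05, a log2 fold change over 1.5 and a mean of at least 10 CPM. Some members of the lists are not reported here. The comparison, the lists and these rules were chosen with earlier results of these data known. GC content was that of the longest GENCODE transcript of each gene symbol. Promoters came from RefSeq tables on GRCm38.p6 and were found for 13107 tested genes.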

Additional observations from a re-analysis of the deposited data

Results flagged for a closer look

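A library was taken to stand apart where its gap to the nearest of the 4 libraries of its day, divided by their range, was above Dixon's critical value for 4 values. Of 384 groups of 4, 1 for each named gene and day, 40 met this, and chance flags about 1 in 20 groups.

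For 19 genes the highest was day 0 replicate 1, most of them of hair and pigment: Adamts18 (2.13 CPM), C1qb (354.2 CPM), Dlx3 (40.1 CPM), Foxn1 (12.1 CPM), Krt31 (73.1 CPM), Krt33b (61.02 CPM), Krt35 (56.9 CPM), Krt83 (100.04 CPM), Krt84 (3.16 CPM), Krt85 (115.8 CPM), Krtap11-1 (76.6 CPM), Krtap8-1 (188.7 CPM), Lrrc15 (78.8 CPM), Mc1r (0.579 CPM), Msx2 (12.5 CPM), Oca2 (1.32 CPM), S100a3 (148.2 CPM), Tyr (5.71 CPM) and Tyrp1 (31.9 CPM). Without this library the log2 fold changes of Krt85, Tyr and Oca2 went from 4.50, 4.88 and 5.25 to 5.42, 5.97 and 7.64, and their calls were the same.

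Day 0 replicate 4 stood above its companions for Mbp (315.5 CPM), Prom1 (7.13 CPM) and Rgs5 (208.4 CPM) and below them for Cma1 (114.5 CPM), Gas1 (102.0 CPM) and Krt17 (336.5 CPM).

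Day 14 replicate 3, the library with the GC trend, stood above for Col4a1 (1268 CPM), Igfbp3 (125.5 CPM) and Krt15 (797.9 CPM) and below for Ddx3y (53.1 CPM), Fabp4 (2317 CPM), Gli1 (40.7 CPM) and Mmp12 (209.2 CPM). With GC offsets the log2 fold changes of Gli1 and Col4a1 were 2.18 and 0.95, beside 2.27 and 1.03 without them.

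Day 14 replicate 1 stood above for Corin (24.8 CPM) and Top2a (208.1 CPM) and below for Csf1r (62.9 CPM), Lrig1 (163.0 CPM) and Retnlg (0 CPM), the last resting on a single count. Day 14 replicate 4 was below for Kit (40.2 CPM), Tgm3 (52.0 CPM) and Tyr (57.9 CPM).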

How the results depend on the processing

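Of 144 recomputed counts over all genes, 132 were within 1.5 times the reported count. The exceptions among the study's cut-offs were 1417 higher and 1852 lower with no filter on low counts, 528 higher with at least 10 counts in every library, 1855 lower with DESeq2 on all 28 libraries, 367 higher and 350 lower with limma on log2(FPKM + 1), 367 and 351 where the mean FPKM was also at least 1, and 775 lower with log2(FPKM + 0.1), a scale that understates low genes. Among genes with an adjusted p under 0.05, 823 higher and 1217 lower also had a log2 fold change over 1.5, and 2579 higher had a fold change over 1.5. Without single libraries, adjusted counts were 4020 to 5174 higher and 4039 to 4736 lower, those by the study's cut-offs 790 to 1025 and 1231 to 1441, and those against day 12 4108 to 4696 and 4340 to 4882. With library totals alone 5555 genes rose and 4165 fell. Without replicates 2 and 3 of day 0, 4513 rose and 4684 fell, and without replicates 1 and 4, 6001 and 5329.

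Same-numbered libraries did not deviate together, so they share only a number. With the number as a replicate block, 4549 genes rose and 4121 fell (895 and 1174 by the study's cut-offs), against day 12 4229 were higher and 4512 lower, and together with GC offsets 4338 rose and 4552 fell.

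Of 177 named genes called, 162 were called in the same direction under every alternative and 15 were not, 11 of them without a single library. Directions turned without replicates 2 and 3 of day 0 for the median log2 fold changes of interferon-stimulated (-0.11) and collagen crosslinking genes (0.0265) and for Arntl (0.11), Col3a1 (0.15), Fn1 (0.22), Irf7 (-0.45), Krt5 (-0.28), Mlkl (-0.12) and Ripk3 (-0.25). Without replicates 1 and 4 they turned for the medians of muscle regeneration (1.63) and immediate early genes (0.020) and for Cdh5 (-0.04), Cxcl2 (0.48) and S100a9 (0.30). With limma's library weights they turned for muscle regeneration (0.99) and Cxcl2 (0.0034), and with length offsets for ribosomal proteins (-0.0015) and Ripk3 (-0.012). Mlkl was -0.0023 with all 28 libraries. Further list medians changed sign. Without day 0 replicate 4 those of clock (from -0.38 to 0.048) and glucocorticoid and metal genes (from -0.10 to 0.056) did, and without replicates 1 and 4 of day 0 those of clock (0.56), glucocorticoid and metal (0.68), basal keratinocyte (0.32) and IGF genes (0.064). Without replicates 2 and 3 those of wound edge (-0.33), B cell (0.051) and elastic fibre genes (0.40) did. With limma's library weights clock, glucocorticoid and basal genes were at 0.32, 0.50 and 0.15, and with Xist as a covariate at 0.18, 0.20 and 0.059. Xist had at most 4 counts in any library used, so this covariate was mostly counting noise and could not adjust for sex. Most other medians that changed sign were within 0.1 of 0. Without single libraries Mlkl was -0.035 to 0.18, below 0 without day 0 replicate 2 (-0.020) or day 14 replicate 4, and Ripk3 -0.053 to 0.32, below 0 without day 0 replicate 2 (-0.0076) or 3. The causes were not tested. Low counts left many neutrophil and B cell markers untested.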

Other observations

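Of 12 genes of the response to glucocorticoids and metals 3 rose and 3 fell at day 14. These shares are near the 29.6% and 27.5% of all genes tested. Mt1, a metallothionein that binds zinc and copper, had 154, 79.3, 82.1 and 105 CPM at day 0 and 251, 204, 213 and 185 CPM at day 14, a log2 fold change of 1.02 (SE 0.21, edgeR adjusted p = 0.0023). Mt2, its neighbour, had 181, 66.2, 68.0 and 109.6 CPM at day 0 and 385, 350, 379 and 311 CPM at day 14, a log2 fold change of 1.74 (SE 0.30, edgeR adjusted p = 0.00095). For both, every day 14 library was above every day 0 library. The members that fell were Tsc22d3, Zbtb16 and Klf9.

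Of 67 replication-dependent and linker histone genes listed, 13 passed the filter on low counts, 5 rose and 3 fell. H1f0, a linker histone of resting cells, rose by a log2 fold change of 0.60 (SE 0.09, edgeR adjusted p = 0.00050), and H1f2, another linker histone, had -0.65 (SE 0.15, edgeR adjusted p = 0.0054).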
